A study of Mus musculus with 12 samples.

Results

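Transcripts of the beta2 integrins, of the adhesion molecule Vcam1 and of the integrins that bind it were measured by bulk RNA sequencing in sorted macrophages of mouse bone marrow. The set holds 10 of the 18467 genes in the count table and was taken from it by symbol: the CD11 alpha chains Itgal, Itgam, Itgax and Itgad, their shared beta chain Itgb2, Vcam1, and the subunits Itga4, Itga9, Itgb1 and Itgb7. The set was chosen by the measured difference between the niche and general sorts, from which Itgad had been described, and by family. VCAM1 and CD11b, the product of Itgam, are antigens of the sort. The values of Itgad, Vcam1 and Itgam between the sorts are therefore descriptions with no test. The other members are tested between the sorts, but as part of a set chosen with that difference in view.

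All animals were female Albino B6 mice. In the metastatic groups E0771 cells, a mouse mammary cancer line, were injected into the caudal artery at 8 weeks of age, and the normal groups came from healthy control mice. From marrow flushed out of femur and tibia after lysis of red cells, a general population was sorted as CD11b+F4/80+ and a niche population as VCAM1+CD163+CCR3+, with 3 libraries in each of the 4 groups. The design text says that the replicates were different mice, and it names the second sort niche-specific while the sample titles use the word general for both. Niche libraries from normal marrow are called A, B and C here because their column numbers differ from those in the titles.

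Integrins are receptors of an alpha and a beta chain that hold cells to matrix or to other cells. The beta2 chain CD18 pairs with CD11a (LFA-1), CD11b (Mac-1, a complement receptor), CD11c or CD11d, the products of Itgal, Itgam, Itgax and Itgad. These pairs are confined to leukocytes, and CD11d is known from macrophages of the splenic red pulp and as a receptor that can bind VCAM-1. VCAM-1 on the macrophage at the centre of an erythroblastic island is known to hold erythroblasts through their alpha4beta1 integrin. Alpha4beta7 and alpha9beta1 can bind VCAM-1 too, and the matrix proteins fibronectin, osteopontin and tenascin C are further ligands of alpha4 or alpha9 integrins.

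The CD11 alpha chain genes Itgam, Itgax and Itgad lie side by side on the plus strand of mouse chromosome 7 (GRCm38, the mm10 build). Itgam spans chr7:128062640-128118491, Itgax chr7:128129547-128150657 and Itgad chr7:128154376-128223816, and Itgal lies apart at chr7:127296260-127335138. A pair of coding stretches is shown because it bears on whether reads can be assigned to 1 of these neighbours. The first is an identical run of 188 bases in Itgax (exons 11 to 13 of 30, within chr7:128135612-128136062) and in Itgad (exons 12 to 14 of 31, within chr7:128189340-128189789), read 5′ to 3′ from the spliced transcripts on the plus strand with no capitals because no base differs.
Itgax and Itgad: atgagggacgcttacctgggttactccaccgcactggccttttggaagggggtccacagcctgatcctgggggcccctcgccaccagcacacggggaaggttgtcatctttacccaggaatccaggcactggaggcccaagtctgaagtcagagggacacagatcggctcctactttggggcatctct

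The second pair is a 60-base window around the longest run that Itgam and Itgad share, with capitals at the 13 bases that differ. It lies in exon 6 of 30 of Itgam (chr7:128076043-128076102) and in exon 7 of 31 of Itgad (chr7:128181701-128181760), and is written 5′ to 3′ on the plus strand.
Itgam: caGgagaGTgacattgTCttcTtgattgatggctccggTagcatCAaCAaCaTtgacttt
Itgad: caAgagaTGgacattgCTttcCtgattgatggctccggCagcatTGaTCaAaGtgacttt
Of the 3997 windows of 50 bases in the longest Itgax transcript, 384 (9.61%) also occurred in the longest Itgad transcript. No window of that length was shared by any other pair of the CD11 alpha chain transcripts, whose longest common runs were 12 to 17 bases. Those 384 shared windows were 9.47% of the 4056 in the Itgad transcript. Reads from the common stretch can be counted for either Itgax or Itgad, and how the authors' counting split them is not given in the sources used here. The values of both Itgax and Itgad are uncertain for this reason.

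Libraries held 13687957 to 30332442 counts, and 7684 to 12657 genes had at least 10 counts. All 10 genes passed the low-count filter that left 12882 genes for testing. Levels are TMM-scaled CPM, counts relative to a library total that is adjusted by the library's TMM factor. None of the 11 macrophage genes was at 0 throughout a group, but their levels in the general sorts were uneven. In the general sorts of normal and metastatic marrow Adgre1 averaged 123.1 and 84.0 and Csf1r 97.0 and 84.6 CPM. Mertk averaged only 2.22 and 1.82 and C1qa 4.74 and 2.91 CPM there. The 11 genes summed to 293.6 to 365.6 CPM in general macrophages from normal marrow and 203.3 to 318.8 in those from metastatic marrow. Their sums were 2441 to 3705 in normal niche libraries and 1174 to 2404 in metastatic niche libraries. The list holds Cd163 and Adgre1, the gene of F4/80, whose products are antigens of the sorts, and the gates can set their levels. The other 9 genes, a choice made after seeing the data, summed to 171.2 to 235 and 92.2 to 246.5 CPM in the general and to 1317 to 2175 and 678.9 to 1354 CPM in the niche sorts. Monocyte markers summed to 14029 to 14681 and 18335 to 20207 CPM in the general sorts and to 5519 to 6714 and 8837 to 11334 CPM in the niche sorts, and neutrophil markers to 23918 to 25397, 17459 to 28058, 12145 to 15066 and 13382 to 14093 CPM in the same order. Erythroid markers reached 84.8 to 313.5 CPM in general and 815.3 to 2058 CPM in niche libraries, and B and plasma cell markers 19.3 to 64.2 and 404.5 to 1398 CPM. In bulk RNA, fewer cells of a type and less RNA per cell cannot be told apart.

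**Figure D1:**
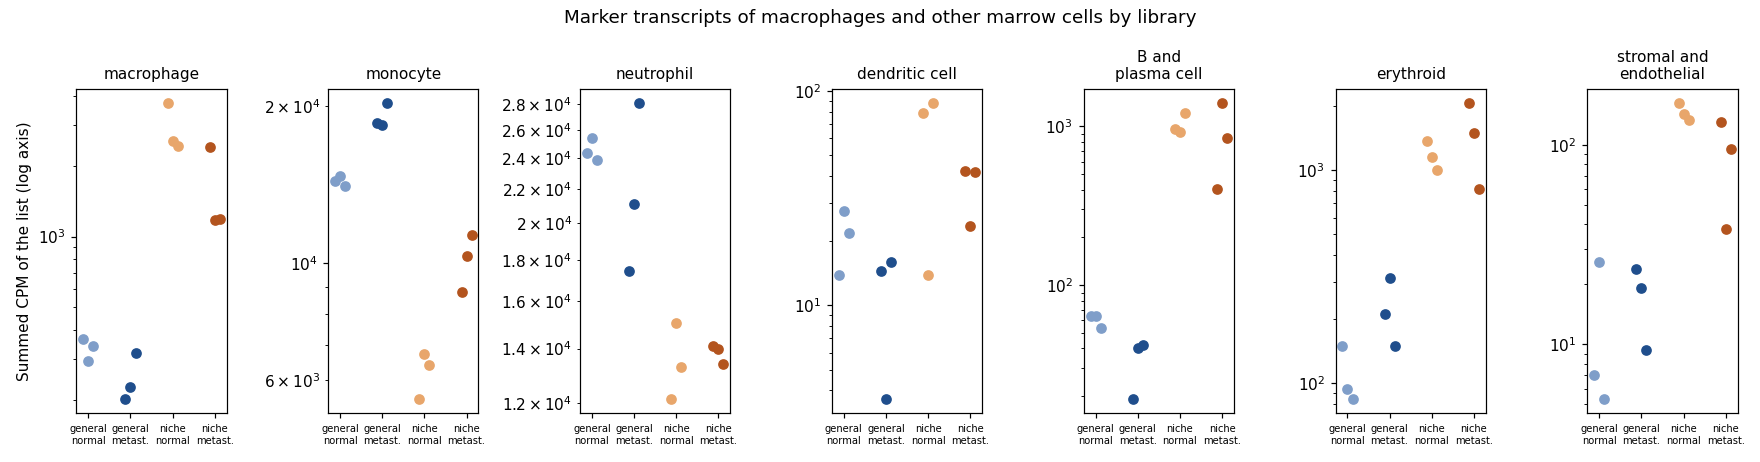
Summed CPM of 7 marker lists (log axis) for each of the 12 libraries, by group; every point is 1 library. Macrophage, erythroid and B cell lists are higher in all 6 niche libraries than in the 6 general ones, and the monocyte list is lower; the macrophage list includes Cd163 and Adgre1, antigens of the sorts.

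Itgad, the CD11d alpha chain, was near the detection limit in the general population and well expressed in the niche population. General macrophages from normal marrow had 6, 9 and 7 Itgad counts in replicates 1 to 3, which is 0.412, 0.534 and 0.350 CPM, and those from metastatic marrow had 7, 9 and 5 counts, or 0.255, 0.407 and 0.183 CPM. Niche macrophages from normal marrow had 202.2, 48.4 and 243.7 CPM in libraries A, B and C, from 2492, 973 and 4853 counts. Niche macrophages from metastatic marrow had 189.2, 82.2 and 55.9 CPM in replicates 1 to 3. Every niche library lay above every general library, while libraries of the same niche group differed by up to 5.04-fold.

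On the log2 scale the fitted difference of Itgad between niche and general macrophages was 8.56 ± 0.67 (SE, n = 3 each) in normal and 8.58 ± 0.67 in metastatic marrow. With each of the 12 libraries left out in turn it was 8.16 to 9 and 7.91 to 8.92. Of the genes that overlap Itgad on the opposite strand, 4931431B13Rik had at most 255 and Cox6a2 at most 138 counts in a library, both in niche metastatic replicate 1, where Itgad had 3746. Whether counting used strand is not stated.

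Itgax, the CD11c alpha chain long used to mark dendritic cells, was low and uneven. General macrophages had 0.137, 2.37 and 0.949 CPM in normal marrow and 9.45, 0 and 7.50 CPM in metastatic marrow. Niche macrophages had 60.8, 25.1 and 5.42 CPM in libraries A to C of normal marrow and 29.7, 4.68 and 39.4 CPM in metastatic marrow. All 3 normal niche libraries lay above the general ones of normal marrow, but in metastatic marrow the groups overlapped. The log2 difference in normal marrow was 4.71 ± 1.73 (SE, n = 3 each) and did not pass (edgeR quasi-likelihood adjusted p = 0.237).

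Itgax did not follow Itgad from library to library. Per 100 Itgad counts there were 30.1, 51.8 and 2.23 Itgax counts in niche libraries A to C of normal marrow and 15.7, 5.69 and 70.5 in the metastatic niche libraries. General metastatic replicates 1 and 3 had 259 and 205 Itgax counts with only 7 and 5 Itgad counts. Dendritic cell markers summed to 13.8 to 27.5 and 3.66 to 15.9 CPM in the general sorts of normal and metastatic marrow, and to 13.9 to 87.3 and 23.4 to 42.3 CPM in the niche sorts. Of the 8 dendritic cell markers, Siglech and Cd209a were at 0 in all niche libraries and Flt3 and Xcr1 in all general libraries from normal marrow, and none was at 0 throughout a metastatic group. The part of such cells in the Itgax values was not tested.

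Itgam, which encodes the CD11b antigen of the general sort, was lower in the niche than in the general population of normal marrow. Its level was 628.4, 789.5 and 852.3 CPM in general macrophages from normal marrow, 512.7, 576.3 and 503.2 CPM in those from metastatic marrow, 327.8, 370.4 and 547.3 CPM in niche libraries A to C, and 330.2, 364.2 and 567.2 CPM in metastatic niche macrophages. In normal marrow no niche library reached the lowest general one, a log2 difference of -0.87 ± 0.26 (SE, n = 3 each). In metastatic marrow the ranges overlapped. A protein-coding gene model on the same strand, Gm49368, overlaps Itgam and had a median of 0 and at most 418 counts in a library.

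Itgal, the alpha chain of LFA-1, had 325.3, 265.2 and 317.3 CPM in general macrophages from normal marrow and 201.4, 214.5 and 258.1 CPM in those from metastatic marrow. Niche macrophages had 123.9, 191.5 and 120.4 CPM in libraries A to C and 150.6, 84.1 and 132.3 CPM in metastatic marrow. Niche libraries lay below the general libraries of the same marrow in both states. The log2 differences were -1.06 ± 0.31 and -0.88 ± 0.31 (SE, n = 3 each), and neither passed (edgeR adjusted p = 0.0852 and 0.405). Without niche library B the difference in normal marrow was -1.30 and passed (edgeR adjusted p = 0.0432). It also passed when at least 10 counts were required in every library (-1.23, edgeR adjusted p = 0.0228).

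Itgb2, the beta chain common to all CD11 pairs, fell in the niche population of normal marrow. It was at 501.4, 494.1 and 339.3 CPM in general macrophages from normal marrow, a mean of 444.9 ± 91.5 (SD, n = 3). In niche libraries A to C it was at 187.9, 205.5 and 181.6 CPM, a mean of 191.7 ± 12.4 (SD, n = 3). The groups did not overlap, and the fitted level was 2.32-fold lower, which on the log2 scale is -1.22 ± 0.25 (SE, n = 3 each). This passed over all tested genes (edgeR quasi-likelihood adjusted p = 0.0131). With metastasis present, general macrophages had 326.6, 308.3 and 383.2 CPM and niche macrophages 361.5, 270.0 and 260.6 CPM, and these ranges overlapped.

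The call for Itgb2 in normal marrow depended on single general libraries. It was lost without general normal replicate 1 (log2 fold change -1.11, edgeR adjusted p = 0.082) and without replicate 2 (-1.13, edgeR adjusted p = 0.0785), with a range of 0.00575 to 0.082 over the 12 fits that leave out a library. limma-voom did not call it either (-1.13, adjusted p = 0.0932). The monocyte and neutrophil lists, whose cells carry CD18, were lower in the same niche libraries, with 6 of 10 and 7 of 14 markers called lower in normal marrow, against 0.97% of all genes, and their part in the lower Itgb2, Itgam and Itgal was not tested.

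**Figure D2:**
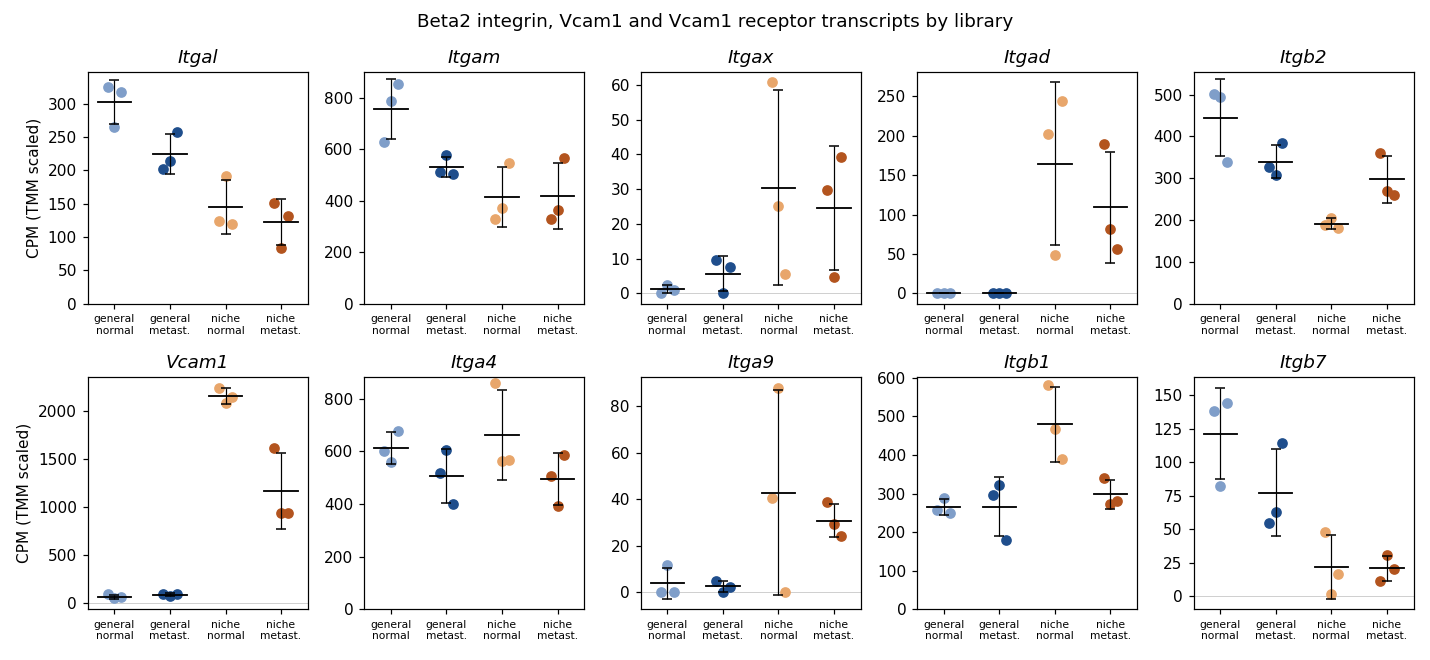
TMM-scaled CPM of each gene (linear axis, starting at or just below 0) by group; points are libraries, the horizontal line is the mean and the bar is the SD of 3 libraries. Itgad and Vcam1 separate the 6 niche libraries from the 6 general ones, and Itgb2 lies between 181.6 and 205.5 CPM in normal niche macrophages, under every other group.

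Vcam1, the ligand and an antigen of the niche sort, was at 86.7, 47.6 and 56.0 CPM in general macrophages from normal marrow and at 92.5, 67.0 and 87.6 CPM in those from metastatic marrow. Niche libraries A to C from normal marrow had 2248, 2088 and 2146 CPM. The metastatic niche libraries had 1621, 937.6 and 938.1 CPM. Normal niche libraries were the highest and the most even, with a coefficient of variation of 3.75%, and no metastatic niche library reached the lowest of them. The log2 difference between the sorts was 5.09 ± 0.26 (SE, n = 3 each) in normal and 3.82 ± 0.26 in metastatic marrow, given as a description because the antibody selected for it.

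Marrow stromal and endothelial cells also carry VCAM-1. Their list summed to 5.35 to 25.8 CPM in general normal, 9.37 to 23.9 in general metastatic, 132.4 to 161.3 in niche normal and 38.0 to 131 CPM in niche metastatic libraries. Of the 11 listed genes in the table, Lepr was at 0 in every niche library from normal marrow, and Lepr, Col1a2 and Cdh5 were at 0 in all general libraries. Kitl was the 1 gene of the 4 tested that was called higher in normal niche macrophages, where 2.47% of all genes were called. The part of these cells in the Vcam1 level was not tested.

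Among the receptors of VCAM-1, Itga4, the alpha4 chain, was expressed at similar levels throughout, with overlapping ranges in all comparisons. It was at 602.5, 559.4 and 676.7 CPM in general macrophages from normal marrow, at 516.1, 606.4 and 400.2 CPM in those from metastatic marrow, at 859.5, 562.9 and 565.9 CPM in niche libraries A to C and at 505.4, 391.0 and 587.7 CPM in metastatic niche macrophages. Library A stood above all others.

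Itgb1, the beta1 chain that pairs with alpha4, alpha9 and many other alpha chains, was highest in niche macrophages from normal marrow. Those libraries had 582.0, 468.2 and 388.5 CPM in A to C, against 257.1, 288.2 and 250.4 CPM in general macrophages from normal marrow. General metastatic macrophages had 296.0, 321.8 and 178.2 CPM and niche metastatic macrophages 339.5, 273.3 and 279.6 CPM. In normal marrow the groups did not overlap, but the log2 difference of 0.85 ± 0.27 (SE, n = 3 each) missed the threshold (edgeR adjusted p = 0.12).

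Itgb7, the beta7 chain of the gut-homing alpha4beta7 integrin, was lower in the niche population. General macrophages had 138.5, 82.1 and 144.1 CPM in normal and 54.6, 63.0 and 114.8 CPM in metastatic marrow. Niche macrophages had 48.3, 1.59 and 16.6 CPM in libraries A to C and 11.7, 30.6 and 20.3 CPM in metastatic marrow. Niche libraries lay under the general ones of the same marrow in both states, with a 30.4-fold spread among the normal niche libraries. The log2 differences of -2.46 ± 0.80 and -1.89 ± 0.80 (SE, n = 3 each) did not pass (edgeR adjusted p = 0.155 and 0.544). Without niche library A the difference in normal marrow was -3.72 and passed (edgeR adjusted p = 0.0287).

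Itga9, the alpha9 chain that with beta1 binds VCAM-1 and tenascin C, was detected unevenly. General macrophages from normal marrow had 0, 194 and 2 counts, or 0, 11.5 and 0.0999 CPM, and those from metastatic marrow had 4.74, 0.226 and 2.42 CPM. Niche libraries A and B from normal marrow had 40.4 and 88.0 CPM while library C had 1 count. Metastatic niche macrophages had 38.6, 29.4 and 24.3 CPM, all above the general libraries of metastatic marrow. In normal marrow the ranges of the sorts overlapped. The gene models Gm2415 and Gm10157 overlap Itga9 on the opposite strand and had at most 386 and 314 counts in a library, both in niche metastatic replicate 1, where Itga9 had 764, so its level is uncertain without knowing whether strand was used.

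Outside Itgad, Vcam1 and Itgam, 7 genes of the set were tested between the sorts. These too belong to a set chosen with that difference in view, so their p values and counts are no independent support. In normal marrow edgeR called 1 of them, Itgb2, lower in the niche sort, where 2.47% of all tested genes were called and 0.97% were called lower. Itgal, Itgax, Itgb1, Itgb2 and Itgb7 had an unadjusted p under 0.05, which 19% of all genes had, and these 5 were also the ones whose groups did not overlap, 2 higher and 3 lower in the niche sort, against 18.8% of all genes, 10% higher and 8.78% lower. DESeq2 called these 5, against 14.2% of all genes, and limma-voom called 0, against 1.44%. In metastatic marrow edgeR, DESeq2 and limma-voom called 0 of the 7, against 0.831%, 3.73% and 1.38% of all genes, and 2 had an unadjusted p under 0.05, against 8.6%. There Itga9 was higher and Itgal and Itgb7 were lower without overlap, and 17.2% of all genes did not overlap, 8.34% higher and 8.85% lower. The median log2 difference of the 7 genes was 0.11 in normal marrow, beside 0.19 for all genes, and -0.04 in metastatic marrow, beside 0.04.

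**Figure D3:**
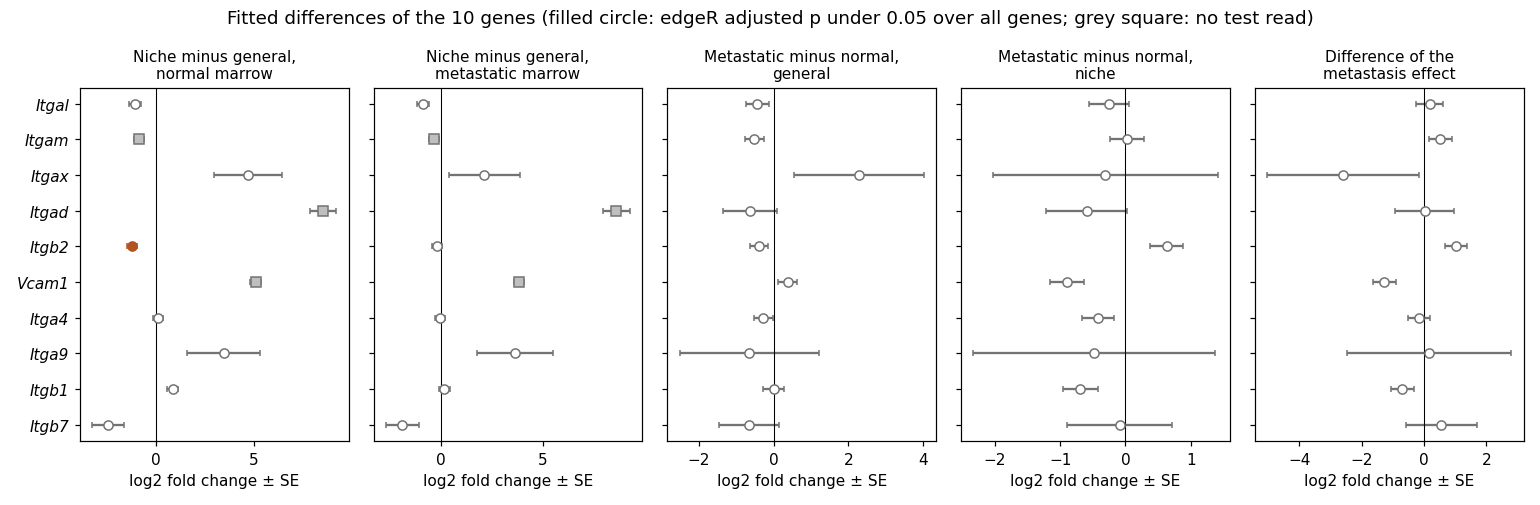
Fitted log2 fold change with its SE for each gene in 5 comparisons; the x axis differs between panels. The 1 filled circle is Itgb2, -1.22 in normal marrow (edgeR adjusted p under 0.05 over all genes). Grey squares mark Itgad, Itgam and Vcam1 between the sorts, where no test was read, and open circles did not pass. In the last panel Itgad, Itgam and Vcam1 are drawn as open circles, but no test of them was read there.

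In niche macrophages Vcam1 and Itgb1 lay lower and Itgb2 higher in every metastatic library than in any normal one, but none of the 3 passed over all genes. The log2 differences between metastatic and normal niche macrophages were -0.89 ± 0.26 for Vcam1 (SE, n = 3 each; edgeR adjusted p = 0.313), -0.69 ± 0.27 for Itgb1 (SE, n = 3 each; edgeR adjusted p = 0.381) and 0.63 ± 0.25 for Itgb2 (SE, n = 3 each; edgeR adjusted p = 0.381). DESeq2 called Vcam1 (-0.90, adjusted p = 0.0169), as did limma-voom (-1.03, adjusted p = 0.00056), where these tools called 7.41% and 0.0854% of all genes. Both niche groups were gated on VCAM1, so the gate can set the Vcam1 level in each, and its part in these calls was not tested. edgeR called 0 of the 10 genes, against 0.00776% of all genes. The 3 with an unadjusted p under 0.05 stand beside 12.7% of all genes, as do the 3 without overlap (1 higher and 2 lower, against 5.63% and 7.11% of all genes).

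The same libraries differed in their marker lists. Between normal and metastatic niche macrophages the macrophage list went from 2441 to 3705 down to 1174 to 2404 CPM and the monocyte list from 5519 to 6714 up to 8837 to 11334 CPM, in both cases without overlap. Without the sort antigens Cd163 and Adgre1 the macrophage list overlapped (1317 to 2175 against 678.9 to 1354 CPM). The stromal and endothelial list was lower (132.4 to 161.3 against 38.0 to 131 CPM), as was the mast cell and basophil list (324 to 490.9 against 141.2 to 159.4 CPM), also without overlap, and the other 8 lists overlapped. Vcam1 and Itgb1 differed in the direction of the 3 lists that were lower and Itgb2 in that of the monocyte list, and the part of a change in cell makeup was not tested.

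In general macrophages Itgam and Itgal lay lower in every metastatic library than in any normal one, 503.2 to 576.3 against 628.4 to 852.3 CPM for Itgam and 201.4 to 258.1 against 265.2 to 325.3 CPM for Itgal. Both general groups were gated on CD11b, so the gate can set the Itgam level in each. The other 8 genes overlapped, while 12.9% of all genes did not overlap, 5.64% being lower. edgeR, DESeq2 and limma-voom called 0 of the 10 genes and none had an unadjusted p under 0.05, where these tools called 0.0155%, 1.09% and 0.179% of all genes and 5.12% had an unadjusted p under 0.05. In the same libraries the monocyte list was higher with metastasis (14029 to 14681 against 18335 to 20207 CPM). The mast cell and basophil list (258.1 to 385.6 against 114 to 165.9 CPM) and the B and plasma cell list (54 to 64.2 against 19.3 to 41.9 CPM) were lower, each without overlap, and the part of these cells in the lower Itgam and Itgal was not tested.

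Whether metastasis acted differently in the sorts was tested as a difference of differences. It was 1.02 ± 0.36 for Itgb2 (log2, SE; edgeR adjusted p = 0.473). For Vcam1 it was -1.27 ± 0.37 (log2, SE), given as a description because it is built from differences between the sorts. Of the 7 genes tested between the sorts, Itgb2 was the 1 with an unadjusted p under 0.05, beside 7.89% of all genes. edgeR, DESeq2 and limma-voom called 0 of the 7, against 0%, 3.18% and 0% of all genes.

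Levels of different genes were compared per kilobase of transcript. In niche macrophages Vcam1 led the set by either length used, at 528.6 CPM per kilobase of the longest transcript in normal and 285.2 in metastatic marrow, with no overlap with the next gene. Per kilobase of the longest transcript, Itgb1 at 125.7, Itgam at 88.7, Itga4 at 67.9 and Itgb2 at 64.5 followed in normal niche macrophages, each overlapping its neighbour. Itgad at 40.1 overlapped Itgal at 27.8, and Itgb7 at 8.26, Itgax at 7.52 and Itga9 at 6.10 came last. In metastatic niche macrophages Itgb2 at 100.1, Itgam at 89.8 and Itgb1 at 78.0 overlapped each other, Itga4 at 50.7 overlapped Itgad at 26.6, and Itgad overlapped Itgal at 23.4. Itgb7, Itgax and Itga9 were again lowest at 7.77, 6.08 and 4.38, with no overlap between Itgal and Itgb7.

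In general macrophages Itgad was last by either length, at 0.105 CPM per kilobase of the longest transcript in normal and 0.0686 in metastatic marrow, where its range met that of Itgax or Itga9. By that length Itgam at 161.6 and Itgb2 at 149.8 led in normal marrow without overlap with Itgb1 at 69.5, Itga4 at 62.8, Itgal at 58.0 and Itgb7 at 45.3, which overlapped in turn, and Vcam1 at 15.5 stood below them. In metastatic marrow Itgb2 at 114.3 and Itgam at 113.4 overlapped and led, and Vcam1 was at 20.2. By the median transcript length the order changed at several places, since short annotated transcripts bring Itgb7 to 449 bases, Itga9 to 649.5 and Itgax to 879.5. By that length Itgb7 at 270.8 came first in general normal and Itga4 at 219.3 in general metastatic macrophages, both overlapping the next gene. Itgal at 34.4 came last in niche normal and Itgax at 28.0 in niche metastatic macrophages.

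The makeup of the CD11 alpha chain RNA is given as a description. Itgad had been described from the difference between the sorts, and CD11b is an antigen of the general sort. Per kilobase of the longest transcript, Itgad made up 0.0511, 0.0591 and 0.0350% of the summed alpha chain level in general macrophages from normal marrow and 0.0414, 0.0603 and 0.0281% in those from metastatic marrow. It made up 31.2, 8.81 and 29.6% in niche libraries A to C and 30.2, 17.4 and 8.02% in metastatic niche macrophages, means of 23.2 ± 12.5% and 18.5 ± 11.1% (SD, n = 3 each). Itgam held 73.2 ± 4.4% and 71.8 ± 3.7% in general and 53.9 ± 8.3% and 61.7 ± 13.6% in niche macrophages (SD, n = 3 each). By this length Itgam was the largest share in each library, and Itgad came second in niche libraries A and C and in metastatic niche replicates 1 and 2. By the median transcript length the share of Itgad was 17.7 ± 9.8% and 14.4 ± 8.7% in the niche sorts (SD, n = 3 each), and in niche library A Itgax at 28.3% then stood above Itgad at 21.5%.

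**Figure D4:**
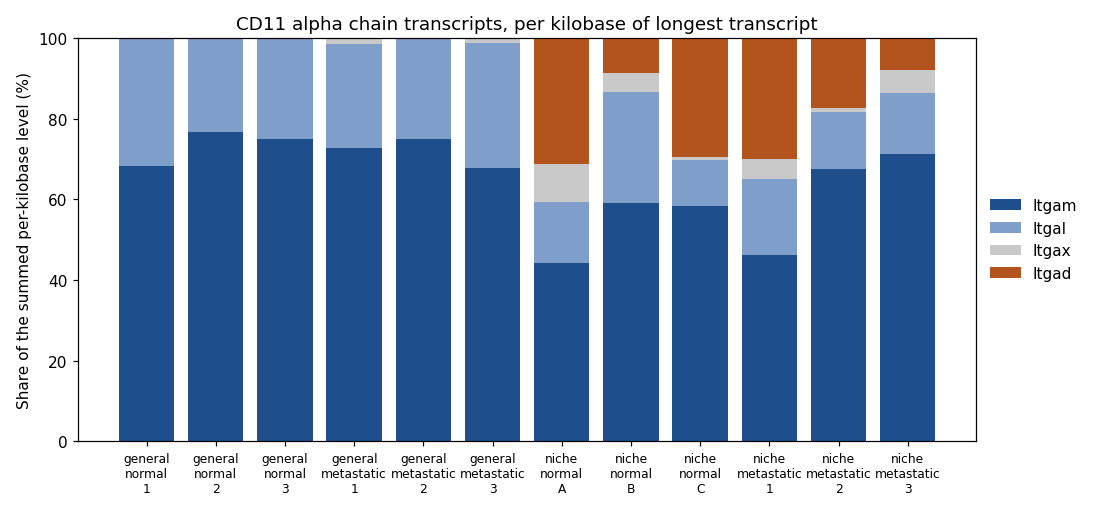
Share of each CD11 alpha chain in their summed level per kilobase of longest transcript (bars add to 100%), 1 bar per library. Itgad takes 8.02 to 31.2% in the 6 niche libraries and under 0.1% in the 6 general libraries. Itgax and Itgad are uncertain because they share sequence.

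The alpha chain sum was set against the beta chain they need. Per kilobase of the longest transcript it was 1.54 ± 0.52 times Itgb2 in general normal, 1.39 ± 0.18 in general metastatic, 2.57 ± 0.68 in niche normal and 1.49 ± 0.39 times in niche metastatic macrophages (SD, n = 3 each). The normal niche range of 1.93 to 3.28 overlapped the general normal range of 1.17 to 2.13. Itga4 stood at 0.91 ± 0.15 times Itgb1 in general normal and 0.538 ± 0.060 times in niche normal macrophages (SD, n = 3 each), ranges of 0.758 to 1.06 and 0.470 to 0.577 that did not overlap. The ratio was 0.765 ± 0.101 in general metastatic and 0.654 ± 0.145 in niche metastatic macrophages (SD, n = 3 each), which did overlap. By the median transcript length the ratio was 1.82 ± 0.30 in general normal and 1.08 ± 0.12 in niche normal macrophages (SD, n = 3 each), again without overlap, so whether Itga4 or Itgb1 was the higher depended on the length.

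Of 33 genes whose products turn integrins on or link them to actin, 32 were in the table and 30 were tested. In normal marrow edgeR called 2 of the 30 in niche macrophages, both lower, DESeq2 called 6 and limma-voom 1, beside 2.47%, 14.2% and 1.44% of all genes. An unadjusted p under 0.05 was found for 11, beside 19% of all genes, and the median log2 difference was -0.60 beside 0.19 for all genes. Vcl, which encodes the adaptor vinculin, fell from 452.3 ± 86.7 to 179.8 ± 32.3 CPM (SD, n = 3 each; log2 -1.33 ± 0.26 SE, edgeR adjusted p = 0.00739). Fgr, a Src-family kinase that acts after beta2 integrins in myeloid cells, fell from 477.2 ± 97.6 to 175.7 ± 86.8 CPM (SD, n = 3 each; log2 -1.44 ± 0.36 SE, edgeR adjusted p = 0.0399), and limma-voom did not call it (-1.51, adjusted p = 0.0881). The monocyte and neutrophil lists were lower in the same niche libraries (5519 to 6714 against 14029 to 14681 and 12145 to 15066 against 23918 to 25397 CPM), and their part in the lower Vcl and Fgr and in the median of the list was not tested. Tln1, the gene of talin that opens integrins, was at 852.1 ± 70.1 and 651.2 ± 187.5 CPM (SD, n = 3 each) and did not pass (edgeR adjusted p = 0.405). In metastatic marrow edgeR called 0 of the 30, DESeq2 called 2 and limma-voom 0, beside 0.831%, 3.73% and 1.38% of all genes. There 7 had an unadjusted p under 0.05, beside 8.6% of all genes, and the median was -0.31 beside 0.04.

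Of 20 ligands of these integrins 13 were in the table and 10 were tested. Fn1, the gene of fibronectin and a ligand of alpha4beta1, was the 1 gene called by edgeR, and it was lower in niche macrophages of both marrow states. In normal marrow the general sort had 695.5 ± 40.8 and the niche sort 43.3 ± 22.8 CPM of Fn1 (SD, n = 3 each), a log2 difference of -4.01 ± 0.38 (SE; edgeR adjusted p = 1.44e-05). The values with metastasis were 953.2 ± 448.6 and 59.8 ± 17.2 CPM (SD, n = 3 each; log2 -4.00 ± 0.38 SE, edgeR adjusted p = 1.97e-05), and limma-voom called no ligand in either state, with log2 differences of -4.32 and -3.94 for Fn1 (adjusted p = 0.306 and 0.0638). DESeq2 called 2 of the 10 ligands in normal and 1 in metastatic marrow, beside 14.2% and 3.73% of all genes. An unadjusted p under 0.05 was found for 2 and 1 ligands, beside 19% and 8.6% of all genes. Fn1 is also on the monocyte list. Icam1, a ligand of LFA-1 and Mac-1, averaged 14.2 ± 6.0 CPM in the general and 58.9 ± 50.2 CPM in the niche sort of normal marrow (SD, n = 3 each) and did not pass (edgeR adjusted p = 0.401).

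Of 17 other integrin subunits 16 were in the table and 9 were tested. Itgav, the alphaV chain of receptors for vitronectin and fibronectin, rose in niche macrophages of normal marrow from 100.8 ± 6.9 to 334.5 ± 76.1 CPM (SD, n = 3 each; log2 1.73 ± 0.30 SE, edgeR adjusted p = 0.00343). With metastasis its levels were 120.2 ± 14.4 and 200.7 ± 53.8 CPM (SD, n = 3 each) and did not pass (edgeR adjusted p = 0.523). Of the 9 in normal marrow, 4 had an unadjusted p under 0.05, beside 19% of all genes, and edgeR called 1, DESeq2 3 and limma-voom 1, beside 2.47%, 14.2% and 1.44%. In metastatic marrow 2 did, beside 8.6% of all genes, and edgeR, DESeq2 and limma-voom called 0, beside 0.831%, 3.73% and 1.38%. Tln1 and Icam1 were named for their roles after their values had been seen.

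With metastasis, edgeR called 0 genes of the 3 lists in either sort. In niche macrophages 7 activation genes, 1 ligand and 3 other subunits had an unadjusted p under 0.05, beside 12.7% of all genes. DESeq2 called 1, 1 and 2 genes of these lists, beside 7.41% of all genes. In general macrophages the unadjusted counts were 2, 2 and 1, beside 5.12% of all genes, with 0 called by DESeq2. limma-voom called 0 in both sorts.

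Genes with a pattern most like that of Itgad were sought among the 8144 tested genes that averaged 10 CPM or more, by the root mean square difference of centred log2 CPM over the 12 libraries. They were Snx24 (0.62), Ank2 (0.71), Slc1a3 (0.74), Fcna (1.23) and Mertk (1.29), where a smaller value is more alike. A prior count of 2 was added before the log. Near 0 counts, as for Snx24, Ank2 and Slc1a3 in the general sorts, that addition largely sets the log2 value, so their likeness to Itgad partly depends on it. Snx24 averaged 0.0396 and 0.0122 CPM in general macrophages of normal and metastatic marrow and 30.3 and 12.8 CPM in the niche sorts. Slc1a3, a glutamate transporter, averaged 0.158 and 0.10 CPM in the general sorts and 97.9 and 30.1 CPM in the niche sorts. Mertk, a receptor for apoptotic cells, averaged 2.22 and 1.82 CPM in general and 295.9 and 125.5 CPM in niche macrophages.

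For Vcam1 the 5 most alike genes were Ccr3 (0.39), Igf1 (0.43), Hmox1 (0.48), Abca1 (0.54) and Maf (0.61). Ccr3, whose product is another antigen of the niche sort, averaged 11.5 and 17.3 CPM in the general and 551.4 and 200.7 CPM in the niche sorts of normal and metastatic marrow. Igf1, a growth factor, averaged 14.2 and 11.9 CPM in the general and 554.1 and 228.4 CPM in the niche sorts. Hmox1, which degrades haem, averaged 61.6 and 57.3 CPM in the general and 1101 and 553.7 CPM in the niche sorts. Vcam1 itself averaged 63.4 and 82.4 CPM in the general and 2161 and 1166 CPM in the niche sorts.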

How the data were processed

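RNA of 12 sorted marrow macrophage libraries was sequenced after rRNA removal. The authors deposited estimated counts per gene symbol, of which 73.9% were whole numbers. The submitters' processing notes name mm10, Partek, STAR 2.7.3a, DESeq2 1.40.2 and R 4.3.1, with no order or role. How reads shared by several genes were counted, the annotation and use of strand are not given in the sources used here.

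Counts were rounded to whole numbers. edgeR 4.0.16 in R 4.3.3 fitted 4 group means to all libraries after filterByExpr (12882 of 18467 genes), TMM scaling and its quasi-likelihood test, with Benjamini-Hochberg adjustment over all tested genes and a call at adjusted p under 0.05. A standard error is a Wald error from the fitted weights and the quasi-dispersion. The script was tested on simulated data. Levels are TMM-scaled CPM, also divided by median or longest transcript length of the GRCm38 annotation, in which 18026 symbols matched. Sequences were read from that genome and its transcripts. Alternatives were RLE scaling, library size only, other filters, DESeq2 1.42.0, limma-voom (limma 3.58.1), removal of abundant genes, a block for replicate number, fits to the compared groups alone and leaving out each library.

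The genes named are all 10 members, the 5 genes most alike to Itgad and to Vcam1, and, from 3 lists (integrin activation and adaptor genes, ligands, other integrin subunits), the genes called between the sorts; Tln1, Icam1, single marker genes named beside a list (such as Kitl, Lepr and Siglech) and gene models that overlap a member are outside this rule and were added after their values had been seen. The members and lists were chosen with earlier results of these data known. Of the 12 marker lists, eosinophil, mast cell and basophil, T and NK cell, megakaryocyte and tumour markers are given here: their summed levels over all libraries were 7.87 to 255.7, 114 to 490.9, 107.7 to 468.9, 0.253 to 93.2 and 0.151 to 33.8 CPM.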

Additional observations from a re-analysis of the deposited data

How the results depend on the processing

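The 17 fold changes printed for the 10 genes kept their sign under every alternative that gave a value. Requiring 10 counts in every library gave none for Itgad and Itgax, the fits to the compared groups alone none for the difference of differences, and the replicate block values in 2 comparisons only. Of the 50 computed 14 changed sign, 0 of them called in either fit: their sizes by edgeR were at most 0.65, and the largest reversed value was 5.87 in size (Itga9, without general normal replicate 2). The number of the 10 genes called in normal marrow, 3 by edgeR, was 8 by DESeq2 and 1 by limma-voom, where 2.47%, 14.2% and 1.44% of all genes were called, and 2 to 4 when 1 library was left out. These numbers include Itgad, Vcam1 and Itgam, for which no test is read between the sorts. With metastasis the number called between the sorts was 2, and 1 when at least 10 counts were required in every library, because Itgad was then not tested. With metastasis in niche macrophages it was 0 by edgeR and 1 by DESeq2 and by limma-voom (0.00776%, 7.41% and 0.0854% of all genes). That 1 gene was Vcam1, whose product is an antigen of the niche sort. The cause of the differences between tools was not tested.

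Over all genes, edgeR called 318 (193 higher, 125 lower), 107 (74 and 33), 2, 1 and 0 in the 5 comparisons in the order of the fold change plot. DESeq2 called 1825 (888 higher, 937 lower), 480 (288 and 192), 141, 954 and 410. limma-voom called 186 (150 and 36), 178 (109 and 69), 23, 11 and 0. With 1 library left out edgeR called 176 to 402, 66 to 121, 0 to 4, 0 to 66 and 0 to 16. Only the libraries of a comparison gave 163 in normal marrow and 0 for metastasis in the niche sort. The 2 and 1 genes called for metastasis became 5 and 3 with no filter and 0 and 0 by library size, and the 1 became 3 with 10 counts in every library and 0 with RLE. Requiring 10 counts in every library turned the split in normal marrow to 146 higher and 179 lower. Library size alone split 116 calls in metastatic marrow into 96 and 20 and moved the median of all genes from 0.04 to 0.29 there and from -0.17 to 0.06 for metastasis in the niche sort. limma-voom put that median at -0.20 in normal marrow, beside 0.19.

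A replicate block was fitted to the 9 libraries whose column and title numbers agree. It called 0 of the 10 genes for metastasis in general macrophages, as without it, and 117 and 3 of all genes between the sorts of metastatic marrow and for metastasis in the general sort. The 2 of the 10 genes it called between those sorts were Itgad and Vcam1, for which no test is read. Deviations of libraries with the same number correlated at -0.007 to 0.032, and those with different numbers at -0.033 to 0.014. Not every library correlated best with its own number. Values this small cannot decide whether a shared number means a shared mouse or batch. No paired analysis was made for the other 3 comparisons because the columns of normal niche libraries carry other numbers than the titles, which leaves their match uncertain. Libraries of 1 group differed by far more than counting noise (chi-square per degree of freedom of 143 to 415.5). Removing the 14 genes that took over 1% of any library changed no call of the 10 genes.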
